A study of Ovis aries with 2 samples.

Results

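The genes described here are those whose symbol is that of a cytoplasmic ribosomal protein (RPL, RPS or RPLP followed by a number), without the S6 kinases, and with at least 10 unique molecular identifiers (UMIs, which tag single captured transcripts) over both libraries. The rule found 53 genes among the 21890 of the matrices. RPL10L had 0 UMIs in both libraries and was left out, so 52 remained. They were 20 loci of the small ribosomal subunit, 26 of the large subunit, 2 of the stalk (RPLP0 and RPLP1), 3 paralogs by symbol (RPL3L, RPL26L1 and RPL36AL) and RPS19BP1, which matched the rule by its symbol but encodes a protein that binds RPS19. No measured level beyond the minimum of 10 UMIs chose them.

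The ribosome is built from a small subunit, which reads the messenger RNA, and a large subunit, which joins the amino acids. Most of their proteins are present in a single copy per ribosome, so a cell makes them in matched amounts. Their messenger RNAs are short, abundant and share a pyrimidine-rich start that ties their translation to growth signals. The stalk of the large subunit recruits the translation factors. Their summed share of a cell's messenger RNA differs between cell types and activity states, and it is often used in single-cell work as a measure of cell quality too.

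The study examined sheep (Ovis aries) of 1 to 2 years with single-cell RNA sequencing. One library came from the native carotid artery; its title calls it an aorta, but the source and the description give the carotid artery. The other came from an engineered vessel titled H2R5-ATEV, which the labels call a graft and place at the carotid artery, and both vessels were taken out after 12 weeks. The labels do not give the number of animals, what the graft is made of or whether both vessels came from the same animal. The labels put the aim at about 10000 captured cells for each library. Cells were freed by enzymes perfused through the lumen and treated to lyse red cells.

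After filtering, the native library kept 10080 of 11371 barcodes with a median of 1510 UMIs, and the graft library 1074 of 1229 with a median of 20737.5 UMIs. The libraries shared 4 cell barcodes among those kept. Cells were clustered without the 52 genes, and clusters were named from marker lists as endothelial-like, smooth muscle-like, fibroblast-like, macrophage-like, T or NK-like (T cells and natural killer cells) or B or plasma-like, written below without the ending. Unnamed clusters held 5.89% of native and 21.9% of graft cells. There was 1 library per group, so no difference between native artery and graft could be tested. Intervals are exact at 95% and cover counting error only, and neither animals nor dissections are compared by them.

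The matrices gave a symbol to 48 of the 80 proteins on a list of the cytoplasmic ribosome, 44 of them through the rule and 4 under other names. The remaining proteins of that list were not analysed here, so the shares below are lower than the share of all ribosomal proteins. The symbols RPS25 (3 loci), RPL17 and RPL30 (2 loci each) each stood for more than 1 gene. How the authors' counting divided reads between near-identical copies, of which ribosomal protein genes have many, is not given in the sources used here. Values of these 7 loci are uncertain for that reason. Genes are placed by identifier only, since the build is not given in the sources used here either.

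The 52 genes held 7.92% of the UMIs of the kept native cells (95% interval 7.91 to 7.93, 3216759 UMIs) and 5.78% of those of the graft cells (5.77 to 5.79, 2032471 UMIs). The graft share was 2.14 percentage points lower. The median share per cell was 9.70% in the native artery (quartiles 7.2 and 11.5) and 4.94% in the graft (3.79 and 6.46). The spread between cells was much wider than the difference between the pooled shares, with a range of 0.0654% to 31.2% in native and 0.158% to 24.1% in graft cells. Small subunit loci took 42.3% of these UMIs in the native artery and 45.5% in the graft.

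**Figure D1:**
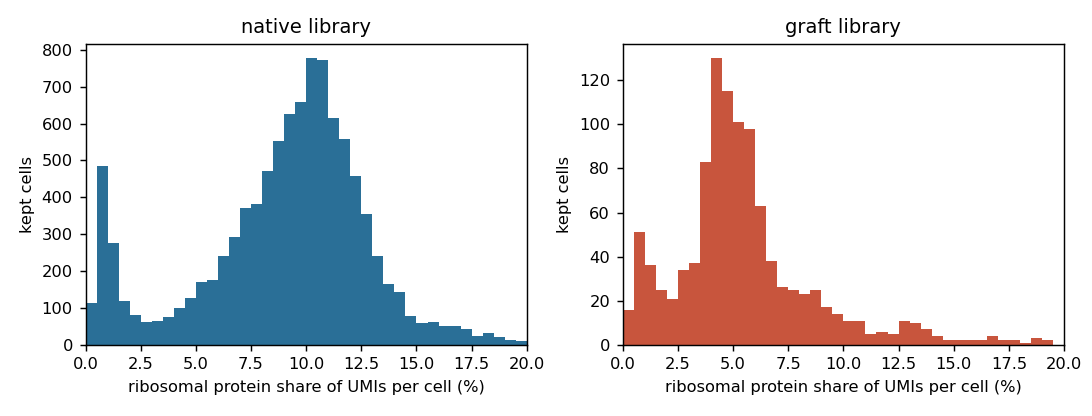
Number of kept cells (vertical axis) against the share of a cell's UMIs on the 52 ribosomal protein genes (horizontal axis, bins of 0.5 percentage points up to 20%), for the native and the graft library. Both libraries have a main mode, near 10% in native and between 4% and 6% in graft cells, and a separate mode near 1%.

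Both distributions had a second, low mode. In the native artery 995 cells (9.87%) had a share under 2%, and in the graft 128 cells (11.9%) did. Of native cells, 118 lay between 1.5% and 2% and 81 between 2% and 2.5%. Of the native low-share cells, 81.6% sat in 1 cluster, number 2, which is described further on. The graft low-share cells were spread over more clusters. Of these 128 cells, 37 were in the unnamed cluster 18, 23 in cluster 2 and 23 in the unnamed cluster 8.

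UMIs per cell differed strongly between the libraries, so the share was also compared within bins of depth. Among cells with fewer than 1000 UMIs it was 10.4% in 3773 native cells and 4.70% in 162 graft cells. From 1000 to under 2000 UMIs it was 9.82% and 3.93%, and from 2000 to under 5000 it was 7.40% and 6.32%. The medians per cell lay further apart in the latter bin, at 8.65% in native and 1.58% in graft cells. There 30.2% of native and 55.3% of graft cells had a share under 2%. From 1000 to under 2000 UMIs the medians were 10.3% and 1.90%. From 5000 to under 10000 UMIs the order turned, with 7.71% in native and 7.88% in graft cells. From 10000 to under 20000 UMIs the shares were 7.59% and 5.78%, and from 20000 to under 50000 they were 7.52% and 5.32%. The native artery was higher in 5 of these 6 bins. In the bin where the graft was higher, T or NK cells made up 35 of its 80 graft cells and 316 of its 1419 native cells. Unnamed clusters held 151 of the 162 graft cells under 1000 UMIs and 43 of the 54 from 1000 to under 2000. In the same bins they held 236 of the 3773 and 205 of the 1909 native cells. The gaps in these bins thus set mostly named native cells against mostly unnamed graft cells, and the part of this make-up was not tested.

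**Figure D2:**
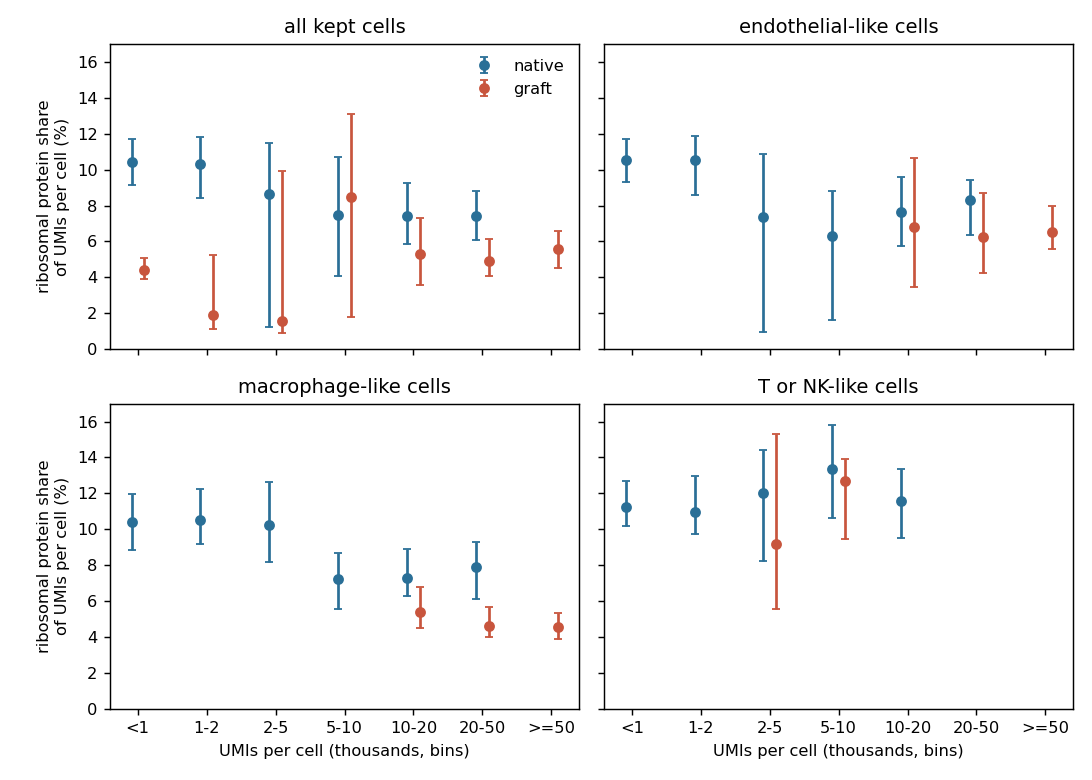
Share of UMIs on the 52 ribosomal protein genes per cell (vertical axis, median with quartiles) against UMIs per cell in bins (horizontal axis, in units of 1000), for all kept cells and for 3 classes, where a bin holds at least 20 cells of a library. In macrophages and in T or NK cells the native median lies above the graft median in both bins with cells of both libraries, and the quartiles overlap in all of them except for macrophages in the 20-50 bin.

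Within the native artery the shares of the classes lay close together in the lowest bin. Below 1000 UMIs the 5 classes with enough cells ran from 10.1% in fibroblasts to 11.5% in T or NK cells, a spread of 1.40 percentage points. The spread was 7.66 points from 2000 to under 5000 UMIs and 4.51 points from 10000 to under 20000 UMIs, and it was again small, at 1.64 points over 3 classes, from 20000 to under 50000 UMIs. UMIs of the marker genes of other classes moved with depth too. In native T or NK cells they took 0.748% of UMIs below 1000 UMIs and 0.0492% from 10000 to under 20000, while the own markers took 0.138% and 0.399%. In native macrophages the markers of other classes fell from 0.576% to 0.0710% between the same bins. What part these foreign UMIs have in the shares of shallow cells was not tested.

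By class, T or NK cells had the highest pooled share in both libraries. It was 12.1% in 1180 native cells and 11.2% in 69 graft cells. B or plasma cells had 10.5% in 51 native and 7.41% in 15 graft cells, and their native median per cell of 12.8% was above the 11.6% of T or NK cells. In these native B or plasma cells markers of other classes took 0.903% of UMIs and their own markers 0.225%, and the cluster stayed unnamed when clustering at resolution 0.5. The part of these other markers in the share was not tested. Native macrophages had 8.13%, endothelial cells 7.09%, fibroblasts 7.03% and smooth muscle cells 6.64%. In the graft the order below the lymphoid classes was endothelial cells with 6.69%, smooth muscle cells with 5.84%, macrophages with 4.88% and fibroblasts with 4.70%. Quartiles over cells overlapped between every pair of neighbours in both orders, so neighbouring classes differed by less than the spread between their cells.

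**Figure D3:**
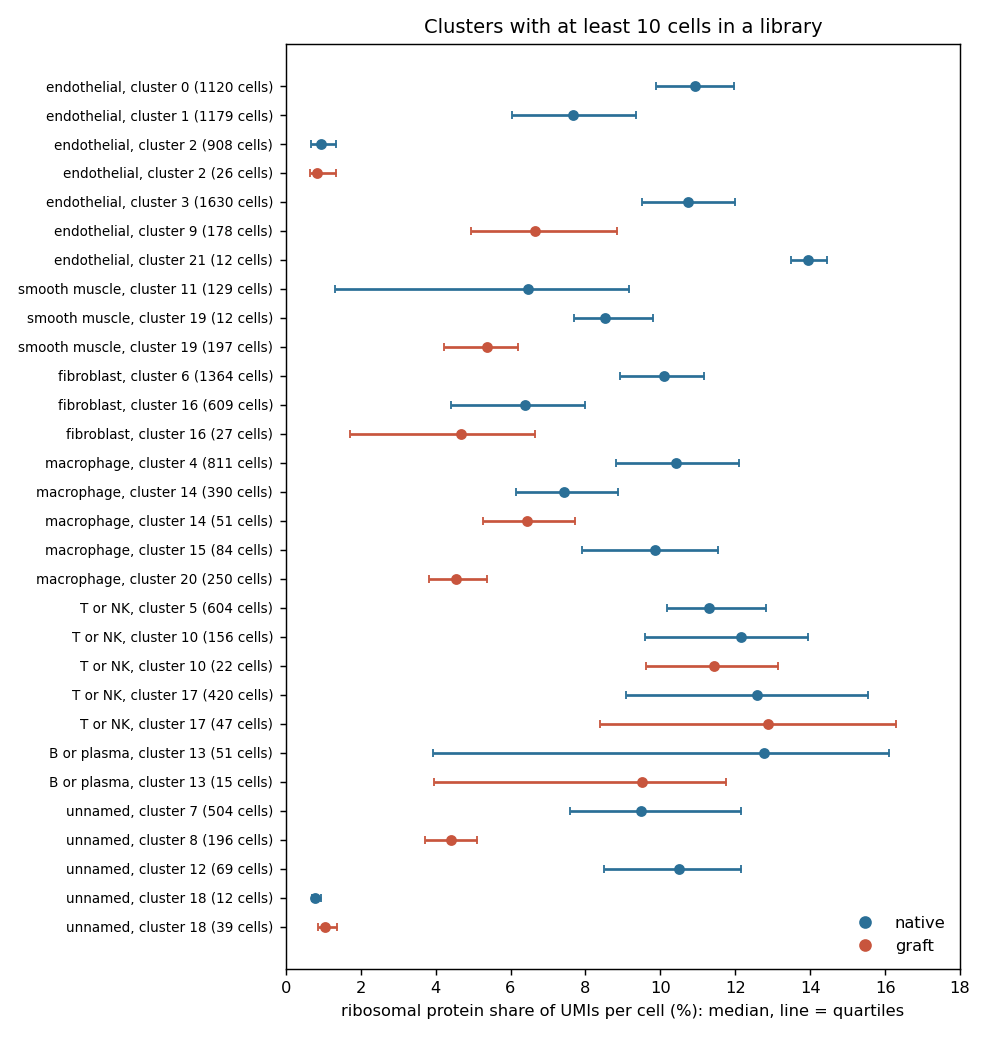
Share of UMIs on the 52 ribosomal protein genes per cell (horizontal axis, point for the median and line for the quartiles) for every cluster with at least 10 cells in a library, ordered by class (vertical axis), native in blue and graft in red. Cluster 2 and the unnamed cluster 18 lie near 1%, and the T or NK clusters reach the highest upper quartiles beside the B or plasma cluster and cluster 21.

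Among the 4 classes compared, macrophages showed the widest gap between the libraries in the pooled share of the whole class. Their share was 8.13% in 1286 native cells (8.11 to 8.15) and 4.88% in 318 graft cells (4.86 to 4.89), which is 3.25 points lower in the graft. Different clusters held most of the class, since 811 native macrophages were in cluster 4 and 390 in cluster 14, while 250 of the graft macrophages were in cluster 20. Cluster 20 was led by MCOLN3, SCIN, BPI, ADAM28, TREM2 and LPL and had a share of 4.69%. Cluster 14 was the 1 macrophage cluster with at least 30 cells of both libraries, and there the share was 7.82% in 390 native and 6.73% in 51 graft cells. At matched depth the shares were 7.74% and 5.58% from 10000 to under 20000 UMIs, and 7.98% and 4.86% from 20000 to under 50000 UMIs. The first of these gaps was smaller than that of smooth muscle cells in the same bin, which is given below. The mitochondrial share of UMIs was 2.00% in native and 3.18% in graft macrophages.

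Endothelial cells differed less in the pooled share. It was 7.09% in 4855 native and 6.69% in 208 graft cells, and the native value included the low-share cluster 2. Without that cluster the shares were 8.79% and 6.80%, a difference of 1.98 points in place of 0.41. Most native endothelial cells were in clusters 0 (1120 cells), 1 (1179), 2 (908) and 3 (1630), and 178 of the graft cells were in cluster 9. With equal weight for each cell the shares were 8.36% and 6.48%. From 10000 to under 20000 UMIs the shares were 7.52% and 7.30%, and from 20000 to under 50000 UMIs they were 8.01% in 26 native and 6.53% in 68 graft cells.

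Smooth muscle cells had 6.64% in 141 native and 5.84% in 201 graft cells. Almost all native cells came from cluster 11 (129 cells) and almost all graft cells from cluster 19 (197 cells). In cluster 11 33.3% of the native cells lay under a share of 2%, against 6.09% of the graft cells of cluster 19. From 10000 to under 20000 UMIs the shares were 7.42% in 26 native and 4.66% in 36 graft cells. Markers of other classes took 0.587% of the UMIs of native and 1.63% of those of graft smooth muscle cells, and their part in the difference was not tested. Own markers took 0.801% and 1.06%. With each library clustered by itself the shares were 6.49% in 134 native and 6.24% in 102 graft cells. These are other cells than above, since a graft cluster of 79 cells with raised smooth muscle markers stayed unnamed there for markers of another class.

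For T or NK cells the share was 12.1% in native and 11.2% in graft cells, and the median per cell was 11.6% and 11.8%, in the other order. Of the native cells 604 were in cluster 5, which held no graft cell. At matched depth the share and the median were both lower in the graft in the 2 bins with at least 20 cells of each library. From 2000 to under 5000 UMIs the shares were 11.4% and 10.6% and the medians 12.0% and 9.20%, and from 5000 to under 10000 UMIs the medians were 13.4% and 12.7%. In cluster 10, led by the natural killer genes CLNK, NCR1 and KLRF1, it was 11.3% in 156 native and 10.6% in 22 graft cells. In cluster 17, led by the T cell genes ICOS, CD28 and CD3E, it was 12.6% in 420 native and 11.8% in 47 graft cells. The sign of the pooled difference changed to 0.21 points higher in the graft when each library was clustered by itself. Fibroblasts were not compared, because the graft held 28.

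Levels of single genes are given as UMIs (CPM, scaled to a total of 1000000 per library or class), which count tagged molecules without regard to transcript length. RPLP1, a stalk protein, was the most abundant, with 5306 CPM in the native artery and 3109 CPM in the graft. RPS28, a short protein of the small subunit, had 3551 and 2626 CPM. RPL37, of the large subunit, had 3430 and 1995 CPM. RPS19, a small subunit protein whose loss of function causes Diamond-Blackfan anaemia in humans, had 2344 CPM in the native artery and 2660 CPM in the graft, and was the 1 gene of the 10 most abundant that was higher in the graft. RPL32, RPL31, RPS14, RPS27A (made as a fusion with ubiquitin) and RPS20, also among the 10, ran from 2117 to 2845 CPM in the native artery and from 1857 to 2004 CPM in the graft. At the other end, 45 of the 52 loci exceeded 100 CPM over both libraries, and 4 had fewer than 100 UMIs in all.

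Among small subunit loci, RPS3A and RPS6 were low in the graft. RPS6, the protein that the S6 kinases phosphorylate, had 1199 CPM in native and 492 CPM in graft macrophages, which is 2.44-fold lower in the graft (2.36 to 2.52). In T or NK cells it had 1315 and 703 CPM, and in endothelial cells 872 and 644 CPM. RPS3A had 1952 and 717 CPM in macrophages, 2.72-fold lower in the graft, and 1856 and 898 CPM in smooth muscle cells, 2.07-fold lower. RPS19 had 2159 CPM in native and 3090 CPM in graft smooth muscle cells.

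Among large subunit loci, RPL30 (ENSOARG00020024228) was the lowest in the graft in each of the 4 classes compared. It had 887 CPM in native and 264 CPM in graft macrophages, 3.36-fold lower (3.22 to 3.50). In endothelial cells it had 900 and 320 CPM, in smooth muscle cells 879 and 323 CPM, and in T or NK cells 1353 and 637 CPM. The second RPL30 locus (ENSOARG00020017893) had 142 CPM in native and 58.4 CPM in graft endothelial cells. RPL17 (ENSOARG00020011339) had 540 and 168 CPM in macrophages, 478 and 183 CPM in smooth muscle cells, and 748 and 397 CPM in T or NK cells, while in endothelial cells it had 354 and 266 CPM. RPL23A had 1411 CPM in native and 590 CPM in graft smooth muscle cells. RPL30 and RPL17 are symbols at several loci, so copies may divide their reads differently, and this was not tested.

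RPL4 and RPL13A, also of the large subunit, lay at the upper end. RPL4 had 359 and 400 CPM in macrophages, one of 3 loci above 0 on the log2 scale there. It had 370 and 576 CPM in endothelial cells and 373 and 482 CPM in T or NK cells. RPL13A had 957 and 1131 CPM in smooth muscle cells and 2215 and 2677 CPM in T or NK cells. Of the stalk, RPLP0 had 1230 CPM in native and 2056 CPM in graft endothelial cells, and RPLP1 had 5216 and 3413 CPM, so the 2 stalk proteins differed in opposite directions there.

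RPL36AL, a paralog of RPL36A, was the most abundant of the paralogs with 802.5 CPM in the native artery and 543 CPM in the graft. It had 858 and 555 CPM in endothelial cells and 872 and 1054 CPM in T or NK cells. RPL26L1, a paralog of RPL26, had 50.8 and 49.1 CPM. RPL3L, which replaces RPL3 in striated muscle, had 10 UMIs in the native and 8 in the graft library. RPS19BP1 had 73.0 and 105 CPM in macrophages, 46.9 and 87.5 CPM in endothelial cells and 43.5 and 87.9 CPM in smooth muscle cells. The 3 RPS25 loci held between 5 and 65 UMIs in a library and are named only.

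**Figure D4:**
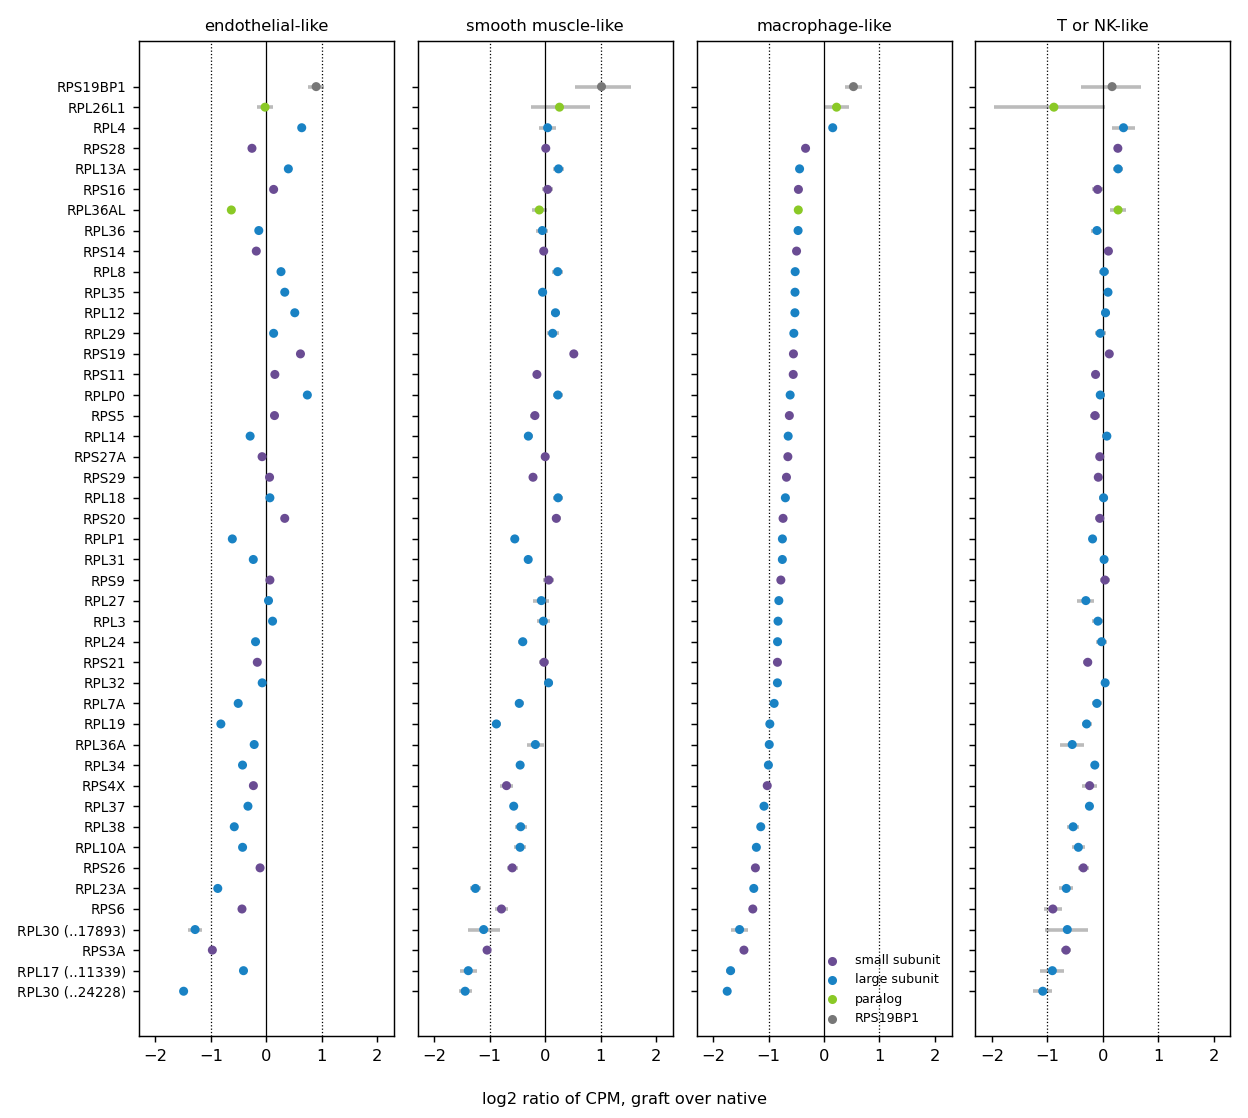
Log2 ratio of CPM, graft over native, with no CPM added (horizontal axis), for ribosomal protein loci above 40 CPM that are reported here (vertical axis, ordered by the value in macrophages; for RPL30 and RPL17 the end of the gene identifier is given), in 4 classes, with grey lines for the counting interval and dotted lines at a 2-fold difference. Nearly all loci lie left of 0 in macrophages, and the points scatter around 0 in the other classes.

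As a count, a locus was taken as apart when the ratio of CPM, after adding 5 CPM to each, was at least 2-fold, among genes with at least 10 UMIs in the class. In macrophages 12 of 50 ribosomal protein loci were at least 2-fold lower in the graft, where 3.42% of all 14692 genes were, and 0 were at least 2-fold higher, where 4.47% were. Their median log2 ratio was -0.69, against 0.00 over all genes, and 47 of the 50 lay below 0. Most of these loci are abundant, and among genes of at least 200 CPM in macrophages 7.14% were at least 2-fold lower and 11.4% higher, with 11 of 44 ribosomal protein loci lower and 0 higher. In endothelial cells 2 of 50 loci were at least 2-fold lower and 0 higher, where 6.08% and 7.26% of all genes were. That share of loci is below the one of all genes, and the medians were -0.12 and -0.03.

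In smooth muscle cells 5 of 48 loci were at least 2-fold lower and 0 higher, against 8.28% and 8.16% of all genes, with medians of -0.09 and -0.02. In T or NK cells 1 of 50 was lower and 0 were higher, against 5.77% and 2.68%, with medians of -0.10 and -0.06. Shares of loci past the fold were thus near or under the background in these 3 classes. With equal weight for each cell 8 endothelial loci were at least 2-fold lower and 1 higher, against 5.29% and 5.69% of all genes so weighted. For the lower loci this is above the share of all genes, but abundant genes alone were not counted with this weight. Without it, 12.9% of endothelial genes of at least 200 CPM were lower and 14.5% higher, with 1 of 44 ribosomal protein loci lower and 0 higher. In macrophages 21 were then lower and 0 higher, against 6.8% and 6.06%. Leaving out cluster 2 gave 5 lower and 0 higher endothelial loci, against 6.1% and 7.47%. Within cluster 14, where macrophages of both libraries were grouped, 3 of 49 loci were at least 2-fold lower and 0 higher, against 1.36% and 2.54% of all genes, and the median was -0.19, against 0.05 over all genes. The count of 12 lower loci was thus 3 in the cluster that both libraries shared. All 4 comparisons set cells of the same 2 libraries against each other.

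Other genes of translation were read from lists of the same pathway. In macrophages the 4 ribosomal proteins with other names, FAU and RACK1 among them, had a median log2 ratio of -0.64, with 0 of 4 past 2-fold. FAU, which is made as a fusion with a ubiquitin-like protein, had 2663 CPM in native and 1583 CPM in graft cells. Of 20 translation factors 3 were at least 2-fold lower and 0 higher, where 3.42% and 4.47% of all genes were, and the median was -0.45. The count was not particular to macrophages. It was 2 lower and 0 higher in endothelial cells, where 6.08% and 7.26% of all genes were. In smooth muscle cells it was 3 lower and 1 higher, against 8.28% and 8.16%. In T or NK cells it was 3 lower and 0 higher, against 5.77% and 2.68%. Within cluster 14 the median of these factors was -0.05, with 2 lower and 0 higher, against 1.36% and 2.54% of all genes. In macrophages EEF1A1 (ENSOARG00020020554), which brings transfer RNA to the ribosome, had 1290 and 525 CPM, EIF1, which helps find the start codon, 1191 and 738 CPM, and EIF4G2 404 and 548 CPM. EEF1A1 (ENSOARG00020020554) was also lower in graft endothelial (1350 and 581 CPM), smooth muscle (1183 and 434 CPM) and T or NK cells (1409 and 535 CPM). EEF1A1 too is a symbol at several loci, so copies may divide its reads differently, and this was not tested. The counts of translation factors are counts of loci and may hold copies of a gene.

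Genes of ribosome assembly did not share this direction in macrophages. Of 50 such genes 1 was higher and 1 lower, with a median of 0.09, and NOP10, of the particles that modify ribosomal RNA, had 92.8 CPM in native and 198 CPM in graft cells. None of 66 mitochondrial ribosomal protein genes passed 2-fold, and their median was 0.21. Of the 13 genes of the mitochondrial genome 2 were at least 2-fold higher in the graft, with a median of 0.48, and COX3, a subunit of cytochrome oxidase, had 3089 and 6518 CPM. Within cluster 14 0 of the 13 passed 2-fold, with a median of 0.32, and COX3 had 2821 and 4770 CPM. Of the regulators of growth and translation 0 of 16 passed 2-fold in macrophages, with a median of 0.23. PDCD4, which holds back translation initiation, had 263 and 163 CPM there, and RPS6KA3 94.2 and 70.5 CPM. EEF2K with 96.9 and 152 CPM and RHEB with 100 and 114 CPM went the other way.

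The make-up of the ribosomal protein UMIs was compared as the share of each locus in their sum. Within a library this share differed little between classes. Over the 45 loci above 100 CPM the mean absolute log2 ratio between 2 classes was 0.216 in the native artery (15 pairs of classes, 0.118 to 0.299) and 0.176 in the graft (6 pairs, 0.110 to 0.254). Between the libraries the same class differed by 0.319 on average (4 pairs, 0.233 to 0.389), more than 2 classes of 1 library did on average. These are values of 2 libraries, with no replicate to set them against.

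RPL26L1 varied most between classes. It took 0.0865% of ribosomal protein UMIs in native endothelial cells, 0.0707% in fibroblasts, 0.0325% in T or NK cells and 0.0217% in B or plasma cells. The last value rests on few RPL26L1 UMIs, since these 51 cells held 50726 ribosomal protein UMIs in all. In the graft RPL26L1 took 0.0904% in endothelial, 0.0840% in smooth muscle, 0.0851% in macrophage and 0.0189% in T or NK cells, the last from 10 UMIs. RPL4 was also lowest in T or NK cells, with 0.309% in native and 0.429% in graft cells, and highest in native smooth muscle cells with 0.707% and in graft endothelial cells with 0.861%. RPS29, a zinc-binding small subunit protein, was high in native T or NK cells, with 4.19% against 2.71% as the mean of the other native classes. In native endothelial cells RPS28 took 5.29% and RPS26 1.36%, against 3.71% and 1.97% in the other classes. In native B or plasma cells RPLP1 took 4.45% against 6.81%. RPS9 took 2.52% in native macrophages against 1.80%.

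Cluster 2 held 908 native and 26 graft cells named endothelial, with VWF, TEK and ERG as its 3 raised markers and with B3GALT1, RIMS2, ABLIM3 and EFNA5 as leading genes. The name rests on the minimum of 3 markers, out of 12 endothelial markers found in the matrices. PECAM1, CDH5 and CLDN5 were among those not raised. Its ribosomal protein share was 1.27% in native (1.26 to 1.28) and 1.09% in graft cells, and 89.4% of its native cells lay under 2%. These cells were not the shallowest, with a median of 3748 UMIs in the native library, above the 705 and 1711 of clusters 3 and 0, whose shares were 11.4% and 11.1%. Their mitochondrial share was 6.88% in native and 8.11% in graft cells, against 3.10% in the other native endothelial cells. The unnamed cluster 18, with the neutrophil genes CSF3R, S100A8 and S100A12 raised, was equally low, with 1.10% in 39 graft and 1.07% in 12 native cells, but its mitochondrial share was 1.67% and 2.42%.

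Against the other native endothelial cells 47 of 50 loci were at least 2-fold lower in cluster 2, where 15.9% of all 14143 genes were, and 0 were higher, where 7.88% were. The median log2 ratio was -2.80, against -0.12 over all genes. Among genes of at least 200 CPM in this comparison 32.1% were lower and 32.3% higher, and all 44 ribosomal protein loci at that level were lower. RPL34, of the large subunit, had 2651 CPM in the other cells and 200.3 CPM in cluster 2, 13.2-fold lower (12.3 to 14.2). RPL10A had 1251 and 96.8 CPM, 12.9-fold lower. RPL4 stood out at the other end with 418 and 202 CPM, 2.07-fold lower, and RPL26L1 with 73.4 and 20.0 CPM, 3.67-fold lower. Cluster 2 was picked out because its share was low, and the limit of 2% was set after the data were seen. The counts of lower loci thus restate that choice and are no separate support for it. The cluster was made without these genes, but both groups came from 1 library and 1 set of cells, so this is a description.

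**Figure D5:**
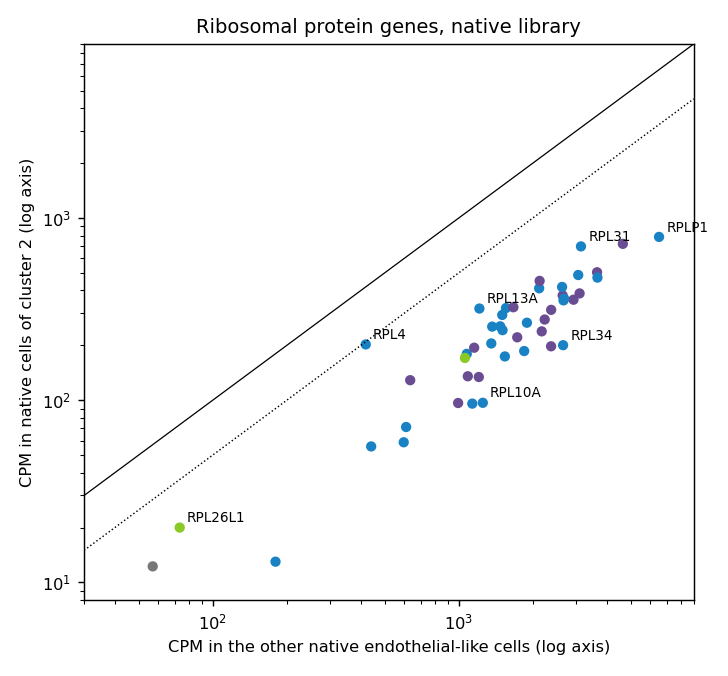
CPM of the ribosomal protein loci above 40 CPM in native cells of cluster 2 (vertical axis, log scale) against the other native endothelial-like cells (horizontal axis, log scale), small subunit in purple, large subunit in blue, paralogs in green and RPS19BP1 in grey. Solid and dotted lines mark equal and 2-fold lower levels, and every locus drawn lies below the dotted line, RPL4 nearest to it.

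The related lists in cluster 2 did not all follow the ribosomal proteins. The 4 ribosomal proteins with other names were at least 2-fold lower, and so were 13 of 20 translation factors and 50 of 66 mitochondrial ribosomal protein genes, which are encoded in the nucleus. FAU had 2885 CPM in the other endothelial cells and 333 CPM in cluster 2, and MRPL52 had 137 and 28.5 CPM. Of 50 assembly genes 14 were lower and 1 higher, with a median log2 ratio of -0.51, against -0.12 over all genes. NOP58, of the particles that methylate ribosomal RNA, had 80.2 and 77.8 CPM. Lower levels in cluster 2 were seen for NOP10 (63.3 and 11.5 CPM), SBDS (172 and 72.3 CPM) and RRN3 (106 and 58.0 CPM). Of the regulators 3 of 17 were lower and 1 higher, with a median of -0.01. RPS6KA3, a kinase of the RSK family, had 164 and 299 CPM, and RHEB 145 and 66.5 CPM. Of all genes in this comparison 15.9% were lower and 7.88% higher, so the counts of regulators lay near that background. By contrast 12 of the 13 mitochondrial genome genes were at least 2-fold higher, with 4741 and 11351 CPM for COX1.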

How the data were processed

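The authors deposited 1 filtered matrix of UMI counts per library, with a gene, a barcode and a whole number on each line; per the file headers Cell Ranger 7.2.0 made it. Of the other tools in the submitters' processing notes, Seurat 5.0.0, R 4.3.3 and bcl2fastq 2.20.0.422, no role is stated. The aligner settings and genome build are not given in the sources used here. The libraries held 43183715 (native) and 36238351 (graft) UMIs, and 6435 of the 21890 genes have no symbol.

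Barcodes with fewer than 200 genes or over 20% mitochondrial UMIs were removed (266 native, 143 graft). The automatic threshold of Scrublet (scanpy 1.11.5) called 0 native and 3 graft doublets and did not work on these data, so the top scores at 0.8% per 1000 barcodes were removed (1034 native, 12 graft). Cells of both libraries were clustered together on 2000 variable genes without the 52 genes, with 30 components, 15 neighbours and the Leiden method at resolution 1. A cluster took the class with most markers at least 2-fold above the mean of the other clusters. It stayed unnamed with fewer than 3 such markers, with over 50% as many of another class, with leading genes of another class, or when shallow. The naming limits were chosen with the clusters in view.

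Within classes of 30 or more cells on each side, UMIs were summed per library, and no test between libraries was made, as each group has 1 library. Shares carry exact Clopper-Pearson intervals and ratios exact conditional binomial intervals. Named genes were the 10 members with the highest CPM, the 3 highest and 3 lowest ratios per class with at least 30 UMIs, the 3 whose part of the ribosomal protein UMIs differed most between classes, the paralogs, and the 4 most abundant genes of each related list. Some genes that the rule gives are not reported here, and genes named in cluster 2 and in the depth and cluster paragraphs were chosen after their values were seen. The ratio and interval steps were tested on simulated counts. The members, lists and comparisons were chosen with earlier results of these data known. Alternatives covered depth, filters, weighting, members, denominators and how classes are made.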

Additional observations from a re-analysis of the deposited data

How the results depend on the processing

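Differences of the ribosomal protein share are given as graft minus native in percentage points, each recomputed under 11 to 13 alternatives. Those without cluster 2, cluster 5 or unnamed clusters, within cluster 14 and at 10000 to under 50000 UMIs were chosen after seeing the data. The graft was lower under every alternative run except for T or NK cells, where clustering each library by itself gave 0.21. Counting intervals are so narrow that most alternatives moved the value. For all kept cells (-2.14) it was -2.13 without a filter, -2.27 at a mitochondrial limit of 10%, -3.56 with equal weight for each cell, -1.84 from 5000 UMIs, -2.62 after thinning to 1000 UMIs, -3.12 over genes with a symbol, -2.21 without mitochondrial genes, -2.12 without paralogs and RPS19BP1, -2.84 without cluster 2, -2.05 without unnamed clusters and -2.17 from 10000 to under 50000 UMIs. For endothelial cells (-0.41) the same order gave -0.65 at the mitochondrial limit, -1.88 with equal weight, -0.14 from 5000 UMIs, -0.91 thinned, -1.0 over genes with a symbol, -0.45 without mitochondrial genes, -0.38 without paralogs, -0.20 with classes from own markers, -0.43 with separate clustering, -0.63 at resolution 0.5, -0.27 with member genes in the clustering, -1.98 without cluster 2 and -0.94 from 10000 to under 50000 UMIs. For smooth muscle cells (-0.80) it was -0.88 at the mitochondrial limit, -1.50 with equal weight, -1.27 from 5000 UMIs, -0.42 thinned, -0.94 over genes with a symbol, -1.45 with own markers, -0.25 with separate clustering, -0.73 at resolution 0.5 and -2.11 from 10000 to under 50000 UMIs. For macrophages (-3.25) it was -4.62 with equal weight, -2.89 from 5000 UMIs, -3.95 thinned, -4.68 over genes with a symbol, -2.94 with own markers, -3.19 with separate clustering, -3.21 at resolution 0.5, -1.09 within cluster 14 and -2.87 from 10000 to under 50000 UMIs. For T or NK cells (-0.81) it was -0.18 with equal weight, -1.04 from 5000 UMIs, -0.67 thinned and -1.54 over genes with a symbol. The cause of these shifts was not tested.

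The count of loci at least 2-fold apart went from 2 to 9 in endothelial cells with equal weight for each cell (8 lower, 1 higher) and to 5 without cluster 2, from 5 to 3 in smooth muscle cells with separate clustering and to 8 from 10000 to under 50000 UMIs, from 12 to 21 in macrophages with equal weight and to 3 within cluster 14, and from 1 to 2 in T or NK cells with equal weight and with 1 CPM added. Under the other alternatives the counts stayed within 1.5 times. For equal weight in endothelial cells and macrophages, without cluster 2 and within cluster 14, shares of all genes past the fold are given above. For every other alternative that share was not counted, so those counts have no background to be set against. Fibroblasts had too few graft cells to be compared. No paired analysis was possible because each group has 1 library. Depth limits the T or NK values most, since the graft gave 69 such cells and 470695 UMIs.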
